A study of Saccharomyces cerevisiae with 18 samples.

Results

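Far1 is an inhibitor of the cyclin-dependent kinase Cdc28 in budding yeast (Saccharomyces cerevisiae). It holds cells in G1 when mating pheromone is present, and it also tethers the polarity machinery around the GTPase Cdc42. In cells that grow without pheromone, Far1 is known as a brake on the G1 cyclin Cln3 at Start, the point of commitment to division. Growth on ethanol requires respiration and gluconeogenesis, while growth on glucose is mostly fermentative.

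The arrays described here are the ethanol arrays that carried no FAR1 signal. They were chosen among the 6 ethanol arrays titled far1Δ or FAR1OE by a deposited FAR1 (YJL157C) intensity below 10. The rule took 3 of the 18 arrays of the series: arrays 1 and 2 titled far1Δ, and array 3 titled FAR1OE. They are called the absent-FAR1 arrays below and were set against the 3 wild type ethanol arrays. The other 3 ethanol arrays, array 3 titled far1Δ and arrays 1 and 2 titled FAR1OE, are called the high-FAR1 arrays.

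FAR1 intensity was 4.8 and 5.3 in the far1Δ-titled arrays and 3.3 in the FAR1OE-titled array, against 29.3, 17.9 and 25.5 in wild type. In the high-FAR1 arrays it was 2595.7, 2554.1 and 2722.3. The value just inside the threshold was 5.3 and the one just outside was 2554.1, so no array lay near it. These values chose the arrays, so FAR1 was left out of the tests and is given as a description. Array 3 titled FAR1OE thus went against its title. The genes called against wild type in the first comparison below, and their number, are also given with the 2 far1Δ-titled arrays alone. Calls of single genes against the high-FAR1 arrays are given with the 3 absent-FAR1 arrays only. Differences on the log2 scale that did not pass the test are given as values.

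Every strain was W303-1A of mating type MATa. All carried ade2-1 with his3-11, a mutant leu2 allele with trp1-1, and also ura3-1 with can1-100. The far1Δ strain had FAR1 replaced, written far1::his3 in the study design, and the FAR1OE strain carried a plasmid named pTet-FAR1-15Myc. Cells grew exponentially in synthetic complete medium with ethanol or glucose, and each strain and carbon source had 3 independent samples. Values are signal intensities of Affymetrix yeast S98 probe sets on a linear scale, with no count behind them, so the number of arrays limits the precision. The array median was 12.6, 23.8 and 16.3 in the absent-FAR1 arrays, against 15.8, 14.4 and 19.5 in wild type.

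Some measures of the arrays themselves moved with the strain. Of 9 control measures, 4 did not overlap between the absent-FAR1 arrays and wild type, where a two-sided exact permutation test of 3 against 3 cannot go below p = 0.1 (adjusted p = 0.225 for each). The 5′ over 3′ ratio of the bacterial spike-in BioDn averaged 0.554 in the absent-FAR1 arrays and 0.214 in wild type. The antisense spike-ins averaged 1.17 on the log2 scale in the absent-FAR1 arrays and 2.87 in wild type. There were 103 to 146 values of 0 in an absent-FAR1 array and 32 to 67 in a wild type array. The 3′ minus 5′ difference of the yeast actin probe sets, a sign of RNA quality, averaged 0.61 in the absent-FAR1 arrays and 0.67 in wild type on the log2 scale. In the other arrays of the series it ran from 0.47 to 8.87. Those arrays enter the shared estimate of spread, and so the SE and p-values of the ethanol comparison. Within ethanol the spike-in ratio splits the arrays as the strains do, so strain and this split cannot be told apart. In a principal component analysis of the 9 ethanol arrays, array 3 titled FAR1OE lay at −20.2 on the second component (19.8% of the variance). The far1Δ-titled arrays lay at 1.02 and −5.63 and wild type between −3.78 and 1.69, so this array stood apart from the other absent-FAR1 arrays.

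Genes of the a mating type were close to the floor in every ethanol array although the labels give MATa. Among STE2, STE6, MFA1, MFA2 and BAR1 the highest intensity in any of the 18 arrays was 11.4, of MFA2. STE2, the gene of the alpha-factor receptor that marks a cells, read 1.2, 0.8 and 0.6 in the absent-FAR1 arrays, against 1.1, 1.4 and 1.4 in wild type. MF(ALPHA)1, the alpha-factor gene of alpha cells, read 549.2, 819.9 and 586.1 in the absent-FAR1 arrays, against 482.2, 494.5 and 610.7 in wild type. The levels of both genes overlapped between the groups, and the defining markers of the labelled mating type were thus low on both sides.

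The first comparison asked which RNA levels differed between cells without FAR1 signal and wild type cells on ethanol. Of 5544 genes tested, 10 were higher and 2 were lower (adjusted p under 0.05 in limma, which was 0.216% of the genes tested). The 10 higher genes, 0.18% of those tested, were HIS3, TRP1, PHM8, BIO5, FUR1, HIS4, LYS1, ARG1, HOM3 and ARG7. The 2 lower genes, 0.0361%, were URA3 and FUI1. They fall into auxotrophic marker genes, genes of pyrimidine uptake and synthesis, and genes of amino acid synthesis, together with PHM8 and BIO5. The changes were at least 2-fold in 11 of the 12.

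With the 2 far1Δ-titled arrays alone, 5 genes were called (0.0902%): HIS3, TRP1, FUR1 and PHM8 were higher and URA3 was lower (0.018%), all of them among the 12. With FAR1OE array 3 alone left out, 10 of the 12 remained called, all but HIS4 and HOM3, with the same log2 changes as in the far1Δ-titled fit. The far1Δ-titled fit also leaves out far1Δ array 3, a high-FAR1 array that enters this comparison only through the shared estimate of spread. The calls of BIO5, LYS1, ARG1, ARG7 and FUI1 were thus lost only when that array was left out as well. Blocking on the spike-in split, which rests on 1 far1Δ glucose array, left HIS3, TRP1, FUR1, PHM8 and URA3 of the 12 called. Without wild type array 2 only these same 5 stayed called. Without wild type array 3 they and FUI1 stayed, and likewise without far1Δ array 1, which ended the calls of BIO5, HIS4, LYS1, ARG1, HOM3 and ARG7. When the arrays were grouped by title, whatever their FAR1 signal, 4 genes were called (0.0722%): HIS3, TRP1, ARG1 and ARG7. In all 12 genes the deposited intensities of the absent-FAR1 arrays did not overlap those of wild type. Over all genes tested, the 3 absent-FAR1 arrays lay above all 3 wild type arrays in 2.31% and below them in 0.776%.

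**Figure D1:**
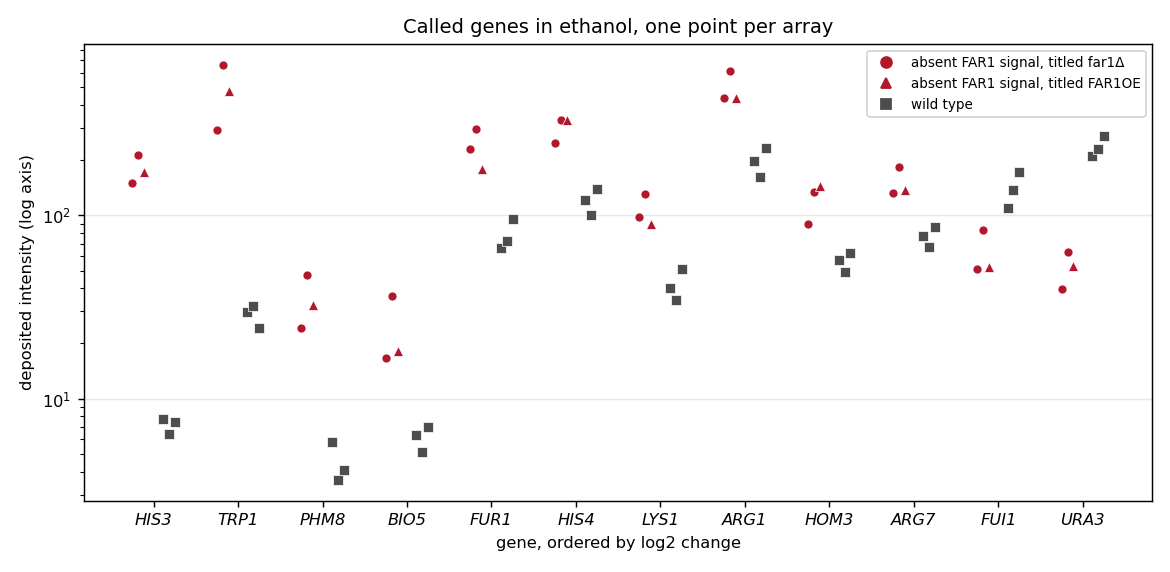
Deposited intensity (log axis) of the 12 called genes in each ethanol array, with the 3 absent-FAR1 arrays (red, a triangle for the array titled FAR1OE) left of the 3 wild type arrays (grey). In 10 genes every red point lies above every grey point, and in FUI1 and URA3 every red point lies below.

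The strain marker genes gave the largest changes. HIS3, which codes for a histidine biosynthesis enzyme and is a common deletion marker, read 150, 214.1 and 171.4 in the absent-FAR1 arrays, against 7.7, 6.4 and 7.5 in wild type. All 3 absent-FAR1 arrays were far above wild type, whichever title they carried. The log2 change was 4.67 ± 0.20 (SE, n = 3 each), 25.5-fold on the log2(intensity + 0.4) scale (adjusted p = 8.11e-11 in limma). With the far1Δ-titled arrays alone it was 4.65 (adjusted p = 1.23e-08). A second HIS3 probe set read 33.8, 60.2 and 46.3 in the absent-FAR1 arrays, against 1.4, 0.3 and 1.3 in wild type.

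TRP1, a tryptophan biosynthesis gene that is also used as a marker, read 291.2, 663.1 and 474.9 in the absent-FAR1 arrays, against 29.6, 31.9 and 24.3 in wild type. The groups were wide apart, with a log2 change of 4.06 ± 0.27 (SE, n = 3 each; adjusted p = 6.34e-08 in limma). It was 3.98 with the far1Δ-titled arrays alone (adjusted p = 2.58e-06). The labels give trp1-1 for every strain and name no TRP1 marker.

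HIS3 and TRP1 were far above wild type in the high-FAR1 arrays too, at 135.5, 127.2 and 204.7 for HIS3 and 643.2, 460.6 and 549.4 for TRP1. The difference between absent-FAR1 and high-FAR1 arrays was 0.36 ± 0.20 for HIS3 (adjusted p = 0.489 in limma) and −0.26 ± 0.27 for TRP1 (adjusted p = 0.802), on the log2 scale. The nearest annotated neighbours of both genes on the chromosome did not pass the test. Against wild type, DED1, next to HIS3, stood at 0.12 ± 0.56 on the log2 scale, and SOK1, next to TRP1, by 0.62 ± 0.27 (adjusted p = 0.994 and 0.75 in limma). The SE of DED1 comes from all 18 arrays, and DED1 read 7.2, 121.1 and 7.1 in the FAR1OE glucose arrays. With only the 6 arrays fitted its SE was 0.17, and it did not pass there either (adjusted p = 0.869).

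Of the other markers URA3 was called, as described with the uracil genes, and LEU2, ADE2 and CAN1 did not pass. LEU2, of leucine synthesis, read 124.2, 154.4 and 41.5 in the absent-FAR1 arrays, against 58, 82.5 and 104.1 in wild type. Its 2 far1Δ-titled values lay above wild type and its FAR1OE-titled value below. ADE2, of purine synthesis, stood at 0.25 ± 0.19 on the log2 scale (adjusted p = 0.986 in limma). CAN1, the arginine permease gene, stood at 0.12 ± 0.23 (adjusted p = 0.992).

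Genes that handle uracil and uridine moved in both directions. Yeast makes UMP either from scratch, through Ura2, Ura4, Ura1, Ura5 and Ura3 in that order, or from uracil through the phosphoribosyltransferase Fur1. Of the 14 tested genes of a pyrimidine list, FUR1 was higher, URA3 was lower and 12 did not pass. Over all genes tested, 0.216% were called. The median change of the list was −0.01 on the log2 scale, as for all genes tested (−0.01), with 7 members positive and 7 negative.

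FUR1, the uracil salvage gene, read 231, 295.2 and 179 in the absent-FAR1 arrays, against 66, 72.3 and 95.9 in wild type. Its values in the absent-FAR1 arrays all lay above wild type, with a log2 change of 1.65 ± 0.16 (SE, n = 3 each; adjusted p = 8.41e-06 in limma). With the far1Δ-titled arrays alone it was 1.80 (adjusted p = 1.08e-05). The high-FAR1 arrays read 76, 88.5 and 88.7, and FUR1 was higher in the absent-FAR1 arrays than in these by 1.72 ± 0.16 (adjusted p = 4.29e-06). Between absent-FAR1 and high-FAR1 arrays, 35 of 5544 genes were called higher (0.631%) and 55 lower (0.992%), 1.62% in all. The high-FAR1 arrays differed from wild type by −0.07 ± 0.16 (adjusted p = 0.887).

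URA3, whose enzyme makes UMP and whose ura3-1 allele all strains carry, read 39.6, 63 and 52.7 in the absent-FAR1 arrays, against 211.2, 231.1 and 271.1 in wild type. It fell by 2.47 ± 0.22 on the log2 scale (SE, n = 3 each; adjusted p = 3.42e-06 in limma), and its change was −2.52 with the far1Δ-titled arrays alone (adjusted p = 6.51e-05). A separate control probe set for URA3 on the array read 71.2, 94.1 and 60.5 in the absent-FAR1 arrays, against 248, 252 and 328.6 in wild type. The high-FAR1 arrays lay between, at 181.6, 164.4 and 163.1 on the main probe set. URA3 was lower in the absent-FAR1 arrays than in these by a log2 difference of −1.73 ± 0.22 (adjusted p = 0.000154).

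FUI1, the uridine permease gene, is in none of the gene lists. It read 51.3, 83.2 and 52.3 in the absent-FAR1 arrays, against 109.8, 136.9 and 172.5 in wild type. The groups did not overlap, and FUI1 fell by 1.40 ± 0.22 on the log2 scale (SE, n = 3 each; adjusted p = 0.00572 in limma). With the far1Δ-titled arrays alone it no longer passed (−1.33, adjusted p = 0.0619), while with only FAR1OE array 3 left out it did. The difference from the high-FAR1 arrays was −1.61 ± 0.22 (adjusted p = 0.000355).

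URA1 and URA2, of the synthesis from scratch, had low values in the absent-FAR1 arrays but did not pass against wild type. URA1 read 106.8, 184.2 and 146.3 in the absent-FAR1 arrays, against 274.3, 206.3 and 344.2 in wild type, with a log2 change of −1.07 ± 0.24 (SE, n = 3 each; adjusted p = 0.101 in limma). URA2 read 123.8, 276.7 and 215.2 in the absent-FAR1 arrays, against 336.5, 302.7 and 406.7 in wild type, with −0.91 ± 0.22 (adjusted p = 0.13). Neither gene overlapped between the groups, and with only the 6 arrays fitted both passed (adjusted p = 0.00385 and 0.0211). That fit called more genes in all than the fit of 18 arrays, genes of unrelated lists among them. Both were lower in the absent-FAR1 than in the high-FAR1 arrays, by −1.24 for URA1 (adjusted p = 0.00775) and −1.34 for URA2 (adjusted p = 0.00162).

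The other genes of the same route showed smaller values. URA4 stood at −0.44 ± 0.17 and URA5 by −0.04 ± 0.15 on the log2 scale, and PPR1, the activator of several URA genes, by 0.24 ± 0.21 (adjusted p = 0.661, 0.992 and 0.992 in limma). The uracil permease gene FUR4 stood at −0.63 ± 0.22 (adjusted p = 0.544) and the uridine kinase gene URK1 by 0.15 ± 0.16 (adjusted p = 0.992).

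**Figure D2:**
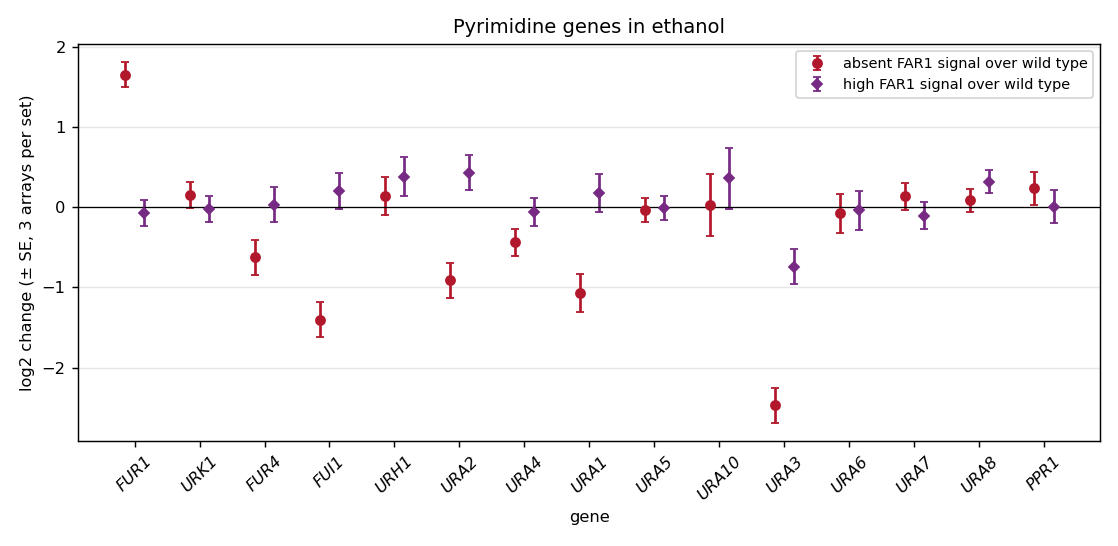
Log2 change (± SE, 3 arrays per set) of pyrimidine genes in ethanol for the absent-FAR1 arrays (red circles) and the high-FAR1 arrays (purple diamonds), each over the same 3 wild type arrays. FUR1 at 1.65, FUI1 at −1.40 and URA3 at −2.47 lie farthest from 0 in red, while the purple values run from −0.74 for URA3 to 0.43 for URA2.

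PHM8 codes for a nucleotide phosphatase that is induced when phosphate is low. It read 24.2, 47.2 and 32.3 in the absent-FAR1 arrays, against 5.8, 3.6 and 4.1 in wild type. Every absent-FAR1 array was above every wild type array, with a log2 change of 2.79 ± 0.32 (SE, n = 3 each; adjusted p = 0.000117 in limma). It was 2.78 with the far1Δ-titled arrays alone (adjusted p = 0.00355). The high-FAR1 arrays read 2.7, 2.4 and 2.4, near the floor, and the log2 difference from these was 3.45 (adjusted p = 4.29e-06). Its size depends on the pseudocount: with 2.9 in place of 0.4, the difference from the high-FAR1 arrays was 2.60 and that from wild type 2.22.

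PHM8 was the only called gene among 18 tested phosphate genes and among 35 tested targets of the stress factors Msn2 and Msn4. Over all genes tested, 0.216% were called. The medians of these lists were 0.27 and 0.12 on the log2 scale, beside −0.01 for all genes. PHO84, the main phosphate transporter gene, read 238.5, 709.8 and 391.1 in the absent-FAR1 arrays, against 438.8, 62.1 and 118 in wild type. Its groups overlapped because wild type array 1 was high (1.48 ± 0.93, adjusted p = 0.937 in limma). The acid phosphatase gene PHO5 stood at 0.28 ± 0.45 (adjusted p = 0.992).

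BIO5, which codes for an importer of biotin precursors, read 16.7, 36.4 and 18.1 in the absent-FAR1 arrays, against 6.3, 5.1 and 7 in wild type. The groups did not overlap, with a log2 change of 1.77 ± 0.31 (SE, n = 3 each; adjusted p = 0.0125 in limma), and 1.89 with the far1Δ-titled arrays alone (adjusted p = 0.0619). The high-FAR1 arrays read 6.8, 5 and 4.7, and the difference from these was 1.95 (adjusted p = 0.00145). The other biotin genes were looked at after these values had been seen. BIO3 and BIO4, of biotin synthesis, stood at 1.17 ± 0.33 and 0.21 ± 0.22 on the log2 scale (adjusted p = 0.271 and 0.992). BIO2, the biotin synthase gene, stood at −0.61 ± 0.18 (adjusted p = 0.378), and the biotin transporter gene VHT1 by 0.47 ± 0.24 (adjusted p = 0.874). None of these 4 passed the test.

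Amino acid synthesis genes made up the largest remaining group. Many of them are induced together by the activator Gcn4 when amino acids run short. Of 15 tested arginine and lysine genes, 3 were higher (ARG1, ARG7 and LYS1) and 12 did not pass. Over all genes tested, 0.216% were called. The median change of the list was 0.67 on the log2 scale, beside −0.01 for all genes, and 14 of 15 members were positive, where 47.8% of all genes were. With the far1Δ-titled arrays alone the median was 0.77, and 0 of the 15 were called.

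ARG1, argininosuccinate synthetase, read 437, 611.8 and 438.6 in the absent-FAR1 arrays, against 197.4, 162.5 and 233 in wild type. The lowest absent-FAR1 value was well above the highest wild type value. The log2 change was 1.21 ± 0.20 (SE, n = 3 each; adjusted p = 0.00926 in limma), and 1.25 with the far1Δ-titled arrays alone (adjusted p = 0.0619). ARG7, of ornithine synthesis in mitochondria, read 131.9, 183 and 138.3 in the absent-FAR1 arrays, against 76.7, 67.4 and 86.4 in wild type. Its groups were separate too, with a change of 0.98 ± 0.17 (adjusted p = 0.0125), and 1.01 with the far1Δ-titled arrays alone (adjusted p = 0.0619).

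LYS1, the last enzyme gene of lysine synthesis, read 97.9, 130.2 and 89.8 in the absent-FAR1 arrays, against 40, 34.4 and 51.3 in wild type. It was higher in all 3 absent-FAR1 arrays, by 1.31 ± 0.23 on the log2 scale (SE, n = 3 each; adjusted p = 0.0125 in limma), and by 1.39 with the far1Δ-titled arrays alone (adjusted p = 0.0619). LYS20, of the first step of the same pathway, read 283, 352.5 and 295.5 in the absent-FAR1 arrays, against 145, 101 and 135.1 in wild type. Its groups did not overlap, but it did not pass (1.26 ± 0.26, adjusted p = 0.0691). ARG3, of citrulline synthesis, came close as well (0.82 ± 0.18, adjusted p = 0.0891). With only the 6 arrays fitted, which called more genes in all, both LYS20 and ARG3 passed (adjusted p = 0.00674 and 0.0482).

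Of 7 tested histidine genes, HIS3 and HIS4 were higher and 5 did not pass, where 0.216% of all genes were called. All 7 were positive, with a median of 0.64 on the log2 scale, beside −0.01 for all genes. HIS4, which codes for a multifunctional histidine enzyme, read 248.9, 332.7 and 332.6 in the absent-FAR1 arrays, against 121.5, 100.7 and 138.5 in wild type. The groups were separate, with a change of 1.32 ± 0.26 (SE, n = 3 each; adjusted p = 0.0356 in limma). It was 1.20 with the far1Δ-titled arrays alone (adjusted p = 0.251). HIS5, the aminotransferase gene of the pathway, stood at 1.19 ± 0.30 and did not pass (adjusted p = 0.19, against 0.00952 with only the 6 arrays fitted).

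Of 13 tested aromatic amino acid genes TRP1 alone was called, where 0.216% of all genes were. The list's median was 0.28 on the log2 scale. ARO3, of the first shared step, stood at 0.65 ± 0.15 (adjusted p = 0.123 in limma), while the tryptophan genes TRP2 and TRP5 stood at 0.02 ± 0.14 and 0.19 ± 0.14 (adjusted p = 0.998 and 0.986). Of 11 tested branched-chain genes none was called, and the median was 0.12. GCN4 itself, looked at after these values had been seen, read 1231.3, 1699.2 and 1374.8 in the absent-FAR1 arrays, against 1258, 1163.7 and 1606.7 in wild type (0.08 ± 0.11, adjusted p = 0.992). Gcn4 is known to be controlled mainly at translation, which arrays do not measure, and whether Gcn4 had a part in these changes was not tested.

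Purine and one-carbon genes had 18 of 19 members positive and a median of 0.36 on the log2 scale, but 0 of 19 passed in limma (6 had an unadjusted p under 0.05, as did 340 of all 5544 genes, 6.13%). ADE4, of the first committed step of purine synthesis, read 6.6, 9.4 and 10.7 in the absent-FAR1 arrays, against 2.6, 0.9 and 6.3 in wild type. These groups were separate at low intensity (1.62 ± 0.38, adjusted p = 0.123). GCV1, of glycine cleavage, stood at 0.98 ± 0.24 (adjusted p = 0.147).

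The amino acid genes that were called against wild type overlapped in level with the high-FAR1 arrays. ARG1 read 449.6, 361.7 and 699.9 there, LYS1 89.6, 88.4 and 138.5, and HIS4 306.4, 248.4 and 444.8. The log2 difference between absent-FAR1 and high-FAR1 arrays was 0.03 ± 0.20 for ARG1, 0.18 ± 0.23 for LYS1 and 0.02 ± 0.26 for HIS4 (adjusted p = 0.984, 0.842 and 0.991 in limma). Both sets were compared with the same wild type arrays, so the 2 comparisons are not independent, and 2.51% of genes were called for the high-FAR1 set. Its own log2 changes from wild type were 1.19 for ARG1, 1.13 for LYS1 and 1.30 for HIS4 (adjusted p = 0.00248, 0.011 and 0.00913 in limma). They were 4.32 for HIS3 and 4.31 for TRP1 (adjusted p = 1.57e-10 and 1.15e-08).

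For the uracil genes, PHM8 and BIO5 the high-FAR1 arrays lay nearer wild type. Their change from wild type was −0.66 for PHM8, −0.17 for BIO5, −0.74 for URA3 and 0.20 for FUI1 on the log2 scale (adjusted p = 0.322, 0.853, 0.0829 and 0.715 in limma). FUI1 read 168.3, 138.8 and 250.7 in the high-FAR1 arrays, which overlapped wild type and lay above all 3 absent-FAR1 arrays.

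**Figure D3:**
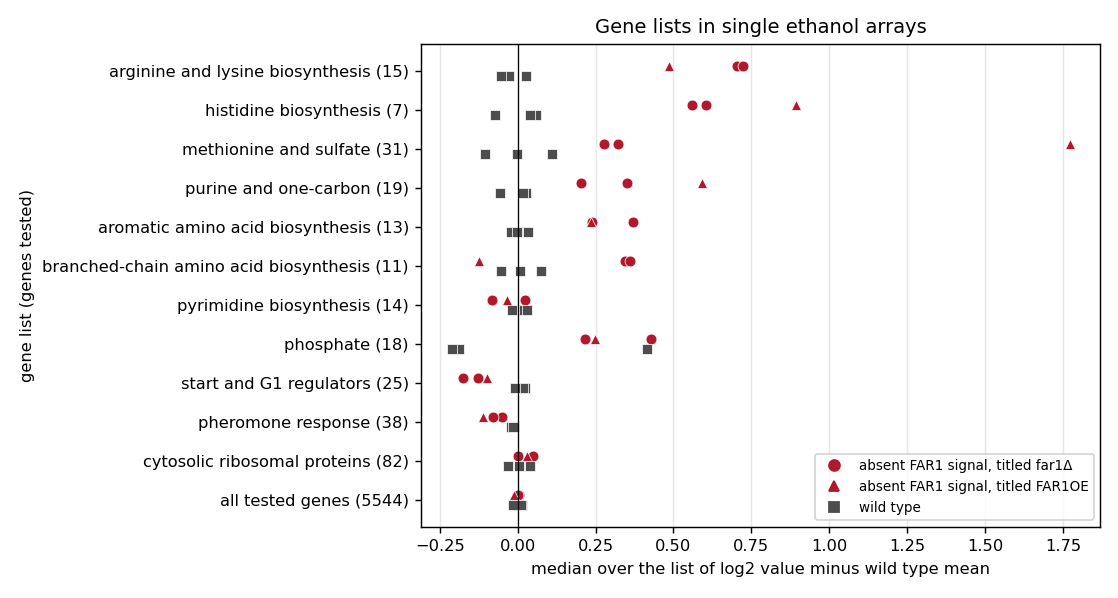
Median over each gene list (number of genes tested in brackets) of the normalized log2 value minus the wild type mean of the gene, with 1 point for each absent-FAR1 array (red, a triangle for the array titled FAR1OE) and each wild type array (grey). The arginine and lysine, histidine, purine and aromatic lists lie right of wild type in all 3 absent-FAR1 arrays, and the methionine and sulfate list lies at 1.77 in the array titled FAR1OE, against 0.32 and 0.28 in the far1Δ-titled arrays.

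Methionine and sulfate genes separated the absent-FAR1 arrays from each other. Of 31 tested members HOM3 alone was called, where 0.216% of all genes were. Positive values were found in 28, with a median of 0.91 on the log2 scale. That median was 0.32 without FAR1OE array 3, so this array decides it. Taken array by array, the median was 0.32 and 0.28 in the far1Δ-titled arrays and 1.77 in the FAR1OE-titled array. In 27 of 31 genes FAR1OE array 3 was the highest of the 6 arrays, as it was in 955 of all 5544 genes.

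SUL1, a sulfate permease gene, read 10.5, 15.7 and 517.9 in the absent-FAR1 arrays, against 7.5, 3.4 and 4.2 in wild type. MET3, of the first step of sulfate assimilation, read 14.8, 25.2 and 324.9 in the absent-FAR1 arrays, against 15.5, 11.9 and 12.3 in wild type. In both genes the high value came from the FAR1OE-titled array alone, and neither passed (SUL1 3.14 ± 1.64 and MET3 1.92 ± 1.16 on the log2 scale, adjusted p = 0.876 and 0.936 in limma). Among the high-FAR1 arrays, FAR1OE array 2 was also high, with 450.7 for SUL1 and 412.4 for MET3, while the other 2 read 8.3 and 6 for SUL1. The list median of that array was 1.63, beside 0.11 in far1Δ array 3 and 0.14 in FAR1OE array 1.

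The 2 arrays with high sulfate genes thus had FAR1 intensities of 3.3 and 2722.3. Both carry the FAR1OE title, as does FAR1OE array 1, which was not high. High values also occurred in glucose under other titles: MET3 read 98.9, 174.4 and 318.6 in the far1Δ glucose arrays, against 52.5, 28.9 and 378.7 in wild type glucose. The spread among arrays of 1 group was thus wide for these genes in glucose as well, wild type included. MET14, of the next step of sulfate assimilation, read 14.6, 37.9 and 293.5 in the absent-FAR1 arrays, against 20.9, 13.4 and 12.2 in wild type. The wild type and far1Δ-titled values of MET14 overlapped.

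HOM3, which codes for aspartate kinase at the head of the methionine and threonine pathway, read 89.5, 133.7 and 144.6 in the absent-FAR1 arrays, against 57.2, 49.4 and 62.6 in wild type. Its groups did not overlap, with a change of 1.09 ± 0.21 on the log2 scale (SE, n = 3 each; adjusted p = 0.0368 in limma). It was 0.91 with the far1Δ-titled arrays alone (adjusted p = 0.209). STR3, of the path from cysteine to methionine, stood at 1.01 ± 0.39 (adjusted p = 0.661), and CYS3, of the path back, by 0.21 ± 0.27 (adjusted p = 0.992).

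**Figure D4:**
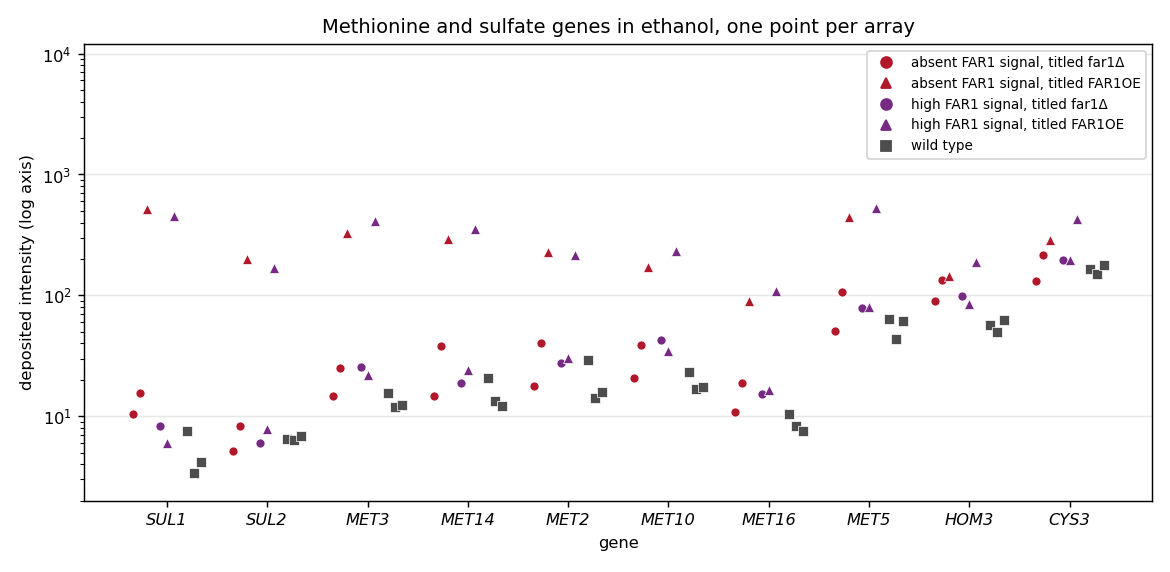
Deposited intensity (log axis) of 10 methionine and sulfate genes in each ethanol array: absent-FAR1 arrays in red, high-FAR1 arrays in purple and wild type in grey, with triangles for arrays titled FAR1OE. For SUL1 to MET5, 1 red and 1 purple triangle lie far above the other arrays, at 517.9 and 450.7 for SUL1, while the 3 red points of HOM3 lie together above wild type.

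Genes of the pathway in which Far1 itself acts did not pass. Of 25 tested Start and G1 regulators none was called in limma (4 had an unadjusted p under 0.05, beside 6.13% of all genes), with 5 positive and 20 negative and a median of −0.12 on the log2 scale. CLN2, a G1 cyclin gene, read 48.7, 98.1 and 59.2 in the absent-FAR1 arrays, against 54.2, 59.8 and 78.8 in wild type, which overlapped (−0.03 ± 0.12, adjusted p = 0.994). CLN1, its paralog, stood at −0.17 ± 0.20 and CLB5, an S phase cyclin gene, by −0.12 ± 0.13 (adjusted p = 0.992 for each).

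CLN3 read 77.9, 110.2 and 98.5 in the absent-FAR1 arrays, against 137.3, 128.3 and 206.7 in wild type. The absent-FAR1 values were all below wild type, but the value of −0.90 had an SE of 1.21 and did not pass (adjusted p = 0.992 in limma). That SE comes from the spread in all 18 arrays, and CLN3 read 0.2, 194.2 and 0.2 in the FAR1OE glucose arrays. With only the 6 arrays fitted, the SE was 0.14 and CLN3 passed (adjusted p = 0.0211), among 36 of 5544 genes called in that fit. SNZ1, ADA2, COX3 and ADH5, of other lists, were called there too (adjusted p = 6.45e-05, 0.0147, 0.0331 and 0.0331). SWI4, of the G1 transcription factor SBF, stood at 0.59 ± 0.23 (adjusted p = 0.697). CDC28, the kinase gene, stood at 0.22 ± 0.12 and SIC1, another inhibitor of the kinase, by −0.09 ± 0.12 (adjusted p = 0.9 and 0.992).

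Of 30 tested G1/S targets of SBF and MBF and 28 tested G2/M and M/G1 genes none was called, with medians of −0.14 and −0.18. In these lists 7 of 30 and 4 of 28 members were positive, where 47.8% of all genes were. The high-FAR1 arrays were low too, with medians of −0.25 and −0.21 against the same wild type arrays. Array by array, the G1/S median was −0.05, −0.22 and −0.17 in the absent-FAR1 arrays, against 0.02, 0.02 and −0.04 in wild type. The G2/M and M/G1 median overlapped, at −0.21, −0.14 and −0.07, against −0.02, 0.09 and −0.08 in wild type. RNR1, a ribonucleotide reductase gene that peaks at G1/S, read 124.4, 182.6 and 141.4 in the absent-FAR1 arrays, against 167, 167.1 and 228.2 in wild type. Its groups overlapped, and the change of −0.46 ± 0.15 did not pass (adjusted p = 0.408 in limma).

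Pheromone response genes, in whose pathway Far1 acts downstream of the MAP kinase Fus3, did not pass either. Of 38 tested, none was called against wild type in limma (3 had an unadjusted p under 0.05, beside 6.13% of all genes), with a median of −0.09 on the log2 scale. FUS3 stood at −0.11 ± 0.15, the factor gene STE12 by −0.43 ± 0.24 and the G protein gene GPA1 by −0.17 ± 0.14 (adjusted p = 0.992, 0.9 and 0.992). Against the high-FAR1 arrays 6 of the 38 were called, CDC42 (described below) among them, where 1.62% of all genes were. FUS3 read 35.9, 65.5 and 43 in the absent-FAR1 arrays, against 82, 82.6 and 95.9 in the high-FAR1 arrays (−0.77, adjusted p = 0.00775). PRM5, a pheromone-regulated membrane protein gene, read 35.4, 72.6 and 36.3 in the absent-FAR1 arrays, against 136.6, 125.4 and 176.5 in the high-FAR1 arrays (−1.63, adjusted p = 5.4e-05).

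CDC42 is the polarity GTPase gene. It read 175.3, 311.4 and 213.1 in the absent-FAR1 arrays, against 205.7, 193.9 and 277.9 in wild type. These overlapped, with a log2 change of −0.08 ± 0.12 (SE, n = 3 each; adjusted p = 0.992 in limma). In the high-FAR1 arrays CDC42 read 1086.6, 1465.9 and 1778.4, and the absent-FAR1 arrays were below these by a log2 difference of −2.96 (adjusted p = 1.69e-11). For this gene too, FAR1OE array 3 lay with the far1Δ-titled arrays 1 and 2, and far1Δ array 3 lay with the FAR1OE-titled arrays 1 and 2. This held in ethanol only. In the FAR1OE glucose arrays FAR1 read 1019.5, 966.2 and 556.9, while CDC42 read 231.7, 318.7 and 250.2. Wild type glucose arrays read 145, 178.8 and 213.4 for CDC42.

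Growth and carbon source genes showed small values. Of 82 cytosolic ribosomal protein genes and 126 ribosome biogenesis genes tested none was called against wild type, with medians of 0.01 and −0.05 on the log2 scale. None was called among 39 respiratory chain genes, 31 gluconeogenesis genes and 24 tricarboxylic acid cycle genes, with medians of 0.10, 0.03 and 0.01. Counted over 43 gene lists, 8 held a called gene and 35 held none. The medians of those 35 lay between −0.25 and 0.36. The lowest was that of iron uptake, with 20 of 23 members negative, beside 2895 of all 5544 genes. Array by array, its median was −0.26, −0.23 and −0.28 in the absent-FAR1 arrays. Wild type array 1 was as low, at −0.25, while wild type arrays 2 and 3 stood at 0.07 and 0.17. In normalized values, all absent-FAR1 arrays lay below all wild type arrays in 1 of the 23 genes, beside 411 of all 5544. FET3, an iron oxidase gene of that list, read 187.9, 330.9 and 168.3 in the absent-FAR1 arrays, against 182.6, 434.7 and 658.5 in wild type, and its groups overlapped (−0.79 ± 0.27, adjusted p = 0.471).

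The second comparison asked whether the ethanol changes were seen in glucose, where the 3 far1Δ arrays all lacked FAR1 signal, at 4.9, 7 and 4.1 against 19.7, 27.3 and 22.8 in wild type. No array is shared with the ethanol comparison. In glucose 78 of 5544 genes were higher (1.41%) and 28 lower (0.505%), 1.91% in all. All 12 genes of the ethanol comparison had the same sign in glucose, and 5 were called there: HIS3, TRP1, FUR1 and PHM8 were higher and URA3 was lower. These are the 5 genes that were called with the far1Δ-titled ethanol arrays alone. The 12 genes were chosen by their ethanol change, and the share of all genes with the same sign in both is not given here.

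HIS3 rose by 4.09 and TRP1 by 3.61 in glucose on the log2 scale (adjusted p = 7.71e-10 and 4.15e-07 in limma). FUR1 rose by 0.69 (adjusted p = 0.0317) and PHM8 by 1.51 (adjusted p = 0.0193), and URA3 fell by 1.02 (adjusted p = 0.0196). URA3 overlapped in glucose, at 125.8, 199.2 and 284 in far1Δ, against 224.4, 260.8 and 382.3 in wild type. PHM8 did not overlap but was low, at 9, 11.2 and 6.6 in far1Δ, against 3.3, 1.5 and 3.2 in wild type. FUR1 was separate, at 379.6, 446 and 289.1 in far1Δ, against 121.5, 154.8 and 192.8 in wild type. The change in ethanol minus the change in glucose was 0.96 ± 0.22 for FUR1, 1.28 ± 0.46 for PHM8 and −1.45 ± 0.31 for URA3. None of these differences passed (adjusted p = 0.181, 0.45 and 0.181), which does not show that the carbon sources act alike. Over all 5544 genes 0 differences were called in limma, while 458 had an unadjusted p under 0.05.

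Among the amino acid genes called in ethanol, ARG1 stood at 0.44, LYS1 by 0.57, HIS4 by 0.72 and HOM3 by 0.19 on the log2 scale (adjusted p = 0.311, 0.249, 0.188 and 0.728 in limma). The median of the arginine and lysine list was 0.19 in glucose and that of the histidine list 0.33. In these lists 0 of 15 and 1 of 7 members were called, the latter the marker gene HIS3. The median of the aromatic list was 0.29 in glucose and 0.28 in ethanol. That of the branched-chain list was 0.37 in glucose and 0.12 in ethanol. In glucose 2 of 13 aromatic genes, the marker gene TRP1 among them, and 1 of 11 branched-chain genes were called. In the pyrimidine list 3 of 14 members were positive in glucose, with a median of −0.23.

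**Figure D5:**
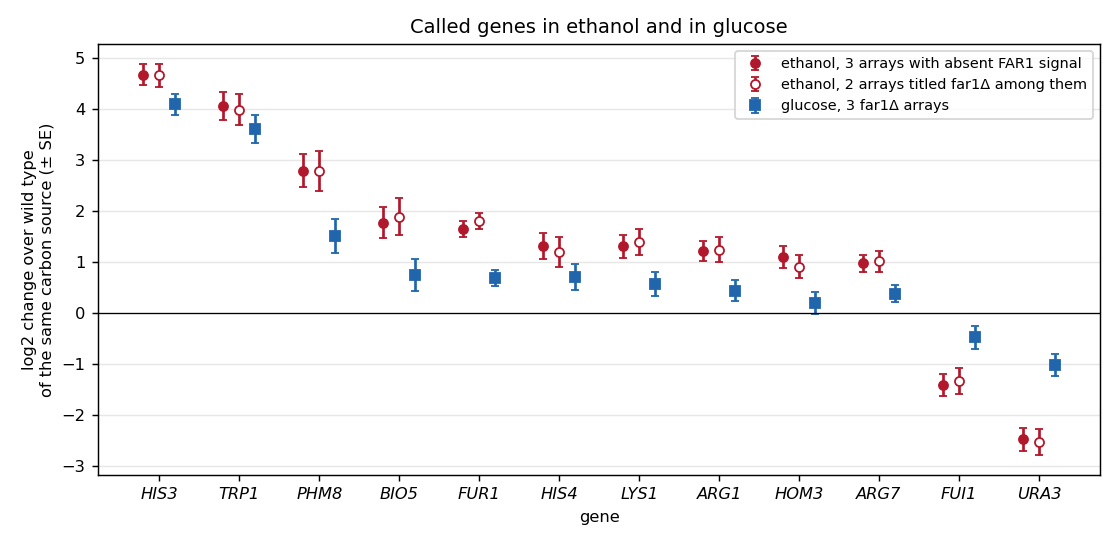
Log2 change (± SE) of the 12 genes over wild type of the same carbon source, for the 3 absent-FAR1 ethanol arrays (filled red), the 2 of them titled far1Δ (open red) and the 3 far1Δ glucose arrays (blue squares). All 12 genes keep their sign in glucose, and the blue values are nearer 0, from 4.09 for HIS3 to −1.02 for URA3. The genes were chosen by their ethanol change, which alone can make the ethanol values the larger ones.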

How the data were processed

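RNA was measured on Affymetrix yeast S98 arrays. The authors deposited 1 linear signal intensity per probe set and array, made with GCOS per the submitters' processing notes; its version, algorithm, scaling and genome build were not given in the sources used here. Members and gene lists were chosen with earlier results of these data known.

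Of 9335 probe sets, 60 controls were set apart, 6504 matched 1 gene in the platform annotation, 328 several and 2443 none. All 6504 identifiers matched the reference gene table. Values were taken as log2(intensity + 0.4), the 10th percentile of all values, and quantile normalized. The probe set with the highest mean stood for its gene (315 genes had several). Genes above the 20th percentile of their array in at least 3 arrays were tested (5544, FAR1 left out).

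A model with 6 set means on 18 arrays was fitted in limma 3.58.1 (R 4.3.3) using eBayes with an intensity trend (12 residual and 5.574 prior degrees of freedom). Adjusted p-values are Benjamini-Hochberg over all genes of a comparison, with a threshold of 0.05. The far1Δ-titled fit used 16 arrays, without array 3 of either title. On simulated data of the absent-FAR1 comparison (5552 genes), 70% of log2 changes of 1 and 93.9% of changes of 2 were recovered, and 6 of 169 calls were false. The simulation changed 100 and 99 genes by these sizes, with independent noise per value and no effect shared within an array. With 169 calls, against 12 in the data, its Benjamini-Hochberg cutoff was laxer. These rates therefore do not give the recovery or the false calls of the comparison itself. No 2 ethanol arrays shared more than 2.965% identical values.

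Named genes were the marker and Start genes, up to 12 of the largest called rises and falls that do not overlap, called or lowest-p members of each of the 43 lists, genes also called in glucose or against the high-FAR1 arrays, and chromosome neighbours of FAR1, HIS3 and TRP1. Alternatives changed the pseudocount, filter, scaling, probe sets, samples, blocks, trend and array weights.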

Additional observations from a re-analysis of the deposited data

Results flagged for a closer look

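The 2062 tested probe sets that the annotation gives no gene or several genes stood outside the gene comparisons. In limma over all 8375 probe sets, 1 of these 2062 was called between the absent-FAR1 arrays and wild type in ethanol, the probe set 11226_at. It read 40.3, 66.4 and 51.2 in the absent-FAR1 arrays, against 20.4, 21.1 and 22.1 in wild type. The groups did not overlap, with a log2 change of 1.22 ± 0.21 (SE, n = 3 each; adjusted p = 0.0227). The high-FAR1 arrays read 51.3, 27.4 and 47.7, and the difference from these did not pass (0.47, adjusted p = 0.38). No cause was tested. Dixon's test of single outlying arrays was not run, since it was not used on groups of 3. Array weights and fits without each array were run in its place. No gene's change differed between ethanol and glucose past the threshold.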

How the results depend on the processing

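HIS3 and TRP1 passed in all 19 alternatives run on single genes, and URA3, FUR1 and PHM8 in 18 of 19; grouping by title ended their calls (adjusted p = 0.216, 0.665 and 0.727). No value that had been called changed sign. The 12 called genes became 7 on the deposited scale, 36 with only the 6 arrays, 39 with array weights, 5 with far1Δ-titled arrays only and 4 with groups by title. Leaving out each array in turn gave 5 to 14, with 5 without wild type array 2, 7 without wild type array 3 and 6 without far1Δ array 1. The other 7 genes each lost their call in some alternative. Lists with a called gene went to 14 with only the 6 arrays and 4 with groups by title, against 8. Absent against high FAR1 gave 46 genes with far1Δ-titled arrays only and 34 on the deposited scale, against 90. Glucose gave 164 genes on the deposited scale, against 106. Tests of all probe sets other than controls, chosen after seeing the data, gave 12, among which 10 of the 12 genes remained: HIS4 and HOM3 were lost, and a second HIS3 probe set and 11226_at were added. The array quality measures without overlap were 4 to 5 in the leave-one-out sets. The causes of these shifts were not tested.

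Equal replicate numbers did not pair the samples: same-numbered arrays correlated at 0.040, −0.026 and −0.014 in their deviations across genes, and far1Δ array 2 correlated best with wild type array 3. With the replicate number as a block 14 genes were called, 11 of them shared with the 12, and HOM3 was lost. The spike-in split as a block gave 13 genes, 5 of them shared; this block rests on 1 far1Δ glucose array. Low-intensity genes such as PHM8 and BIO5 depend on the pseudocount.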
